A study of Mus musculus with 2 samples.

Results

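The 10 genes described here are markers of brown and white fat: Ucp1, Cidea, Cidec, Adipoq, Plin1, Lep, Retn, Cfd, Elovl3 and Prdm16. They were taken by symbol from a list of markers, drawn up with earlier results of these data known, and all 10 were found among the 55536 annotated genes of the tables. They were measured by total RNA sequencing in the heart of B6CASTF1/J females aged 14 days, a cross in which each animal carries 1 genome of C57BL/6J and 1 of CAST/EiJ. The series held 1 group of 2 libraries with no treatment named, each prepared from 300 ng of total RNA, to which the ERCC control RNAs were added. The labels number the libraries as biological replicates 1 and 2. Their tissue descriptions differ in the animal number, but the donor label is the same, and the wording for replicate 1 can be read as a pool of 3 females. With 1 group there was no comparison between conditions and no test: the results are levels, and how far the libraries differed.

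Brown adipocytes burn fat to make heat. Their mitochondria carry UCP1, which lets protons back across the inner membrane without making ATP, and their identity depends on the transcriptional regulator PRDM16. White adipocytes store triglyceride in a droplet coated by perilipin 1 and CIDEC, and secrete hormones and other proteins such as leptin, adiponectin, resistin in rodents, and adipsin, the complement factor D encoded by Cfd. The heart burns fatty acids itself, and fat depots lie on its surface and around the nearby great vessels. Bulk RNA does not say which cells a transcript came from, and more cells of a type cannot be told apart from more RNA per cell.

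The libraries held 36404376 and 34569708 expected counts, and 13044 to 13055 genes reached 1 TPM. TPM is a transcript level corrected for length and for the size of the library, so it can be compared between genes. All 10 cardiomyocyte markers stood above 400 TPM in both libraries, as heart muscle has. The libraries stood apart in other tissues' markers: 10 airway and lung genes summed to 185.9 TPM in replicate 1 and 12.1 in replicate 2. Scgb1a1, a secretory protein of airway club cells, gave 97.6 and 5.96 TPM. The 6 red blood cell genes also summed lower in replicate 2, at 27770 against 35951 TPM, and 10 skeletal muscle genes summed to 5 and 7.25 TPM.

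Of the 10 fat genes, 8 reached 1 TPM in both libraries. Ucp1, Cidea and Cfd led at 30 to 40 TPM, Plin1, Adipoq, Prdm16 and Cidec followed at 7 to 11 TPM, and Retn stood near 2 TPM. Elovl3 and Lep stood near 0.3 TPM, below the 1 TPM limit. The median level over the 10 was 8.32 ± 0.866 TPM (SD of the library medians, n = 2). Over the 7 whose expected count averaged 50 or more it was 10.9 TPM, beside 9.14 TPM over all 12876 genes that met this minimum. The deposited expected counts of all 10 were whole numbers within 0.005, so no fractional reads were assigned to them.

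The sequence before 4 genes' start sites is shown for the highest brown fat gene, an abundant and a scarce hormone gene, and a gene with a pair of annotated starts. Each is 250 bases from RefSeq on GRCm38.p6, the assembly that mm10 names, read 5′ to 3′ on the gene's strand and ending just before the RefSeq start. RefSeq windows were read for 8 of the 10 genes, and the other genes were not searched for motifs. Capitals mark matches on either strand to CCAAT (in Adipoq), GGGCGG and TTGCGCAA (in Lep) and AGGTCA (in Ucp1), and the Cidec windows held none of the motifs searched.
Ucp1, chr8:83290098-83290347, plus strand: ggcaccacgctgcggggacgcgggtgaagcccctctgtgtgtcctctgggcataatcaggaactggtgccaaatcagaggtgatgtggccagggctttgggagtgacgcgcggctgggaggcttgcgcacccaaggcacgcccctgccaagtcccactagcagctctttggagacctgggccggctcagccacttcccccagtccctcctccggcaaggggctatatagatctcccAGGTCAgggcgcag
Adipoq, chr16:23146286-23146535, plus strand: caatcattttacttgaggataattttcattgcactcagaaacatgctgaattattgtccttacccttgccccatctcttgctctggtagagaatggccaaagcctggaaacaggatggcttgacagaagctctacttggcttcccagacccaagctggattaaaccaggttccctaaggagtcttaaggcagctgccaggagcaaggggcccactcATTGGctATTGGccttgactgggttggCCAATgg
Lep, chr6:29059971-29060220, plus strand: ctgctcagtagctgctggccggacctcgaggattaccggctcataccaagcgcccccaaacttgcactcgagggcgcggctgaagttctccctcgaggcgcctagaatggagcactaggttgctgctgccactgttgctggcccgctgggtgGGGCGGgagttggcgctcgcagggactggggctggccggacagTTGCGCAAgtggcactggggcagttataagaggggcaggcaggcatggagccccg
Cidec, before the upstream start, chr6:113435761-113436010, minus strand: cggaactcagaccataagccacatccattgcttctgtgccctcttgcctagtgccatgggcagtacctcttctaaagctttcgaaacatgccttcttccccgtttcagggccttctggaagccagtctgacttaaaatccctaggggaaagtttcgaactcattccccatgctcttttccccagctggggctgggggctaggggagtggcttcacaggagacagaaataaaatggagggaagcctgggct
Cidec, before the downstream start, chr6:113434765-113435014, minus strand: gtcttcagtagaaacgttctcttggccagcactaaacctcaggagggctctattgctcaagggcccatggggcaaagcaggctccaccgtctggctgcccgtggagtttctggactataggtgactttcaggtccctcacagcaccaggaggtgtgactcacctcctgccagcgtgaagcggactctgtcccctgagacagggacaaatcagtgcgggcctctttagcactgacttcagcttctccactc

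The Ucp1 window held AGGTCA, a hexamer that nuclear receptors bind, at bases -14 to -9 before the start. It was present in 14.0% of the 32817 promoter windows of the same length. The Adipoq window held CCAAT 3 times, first at bases -34 to -30, and 33.8% of windows held it at least once. The Lep window held the palindrome TTGCGCAA, to which C/EBP factors can bind, at bases -55 to -48, and only 54 windows (0.165%) held it. Lep also had GGGCGG at -98, a GC box found in 32.7% of windows. No window of the 8 genes read held TATAAA (12.4% of all windows) or the E box CACGTG (6.02%). None of them held DR1 (0.0335%), the direct repeat of AGGTCA with any 1 base between the copies. CpG content set the windows apart: Prdm16 had 22 CpG, Lep 16, Ucp1 12 and Adipoq 0, beside a median of 6 over all windows. A match is a description of the letters only, and binding was not measured.

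Among the brown fat genes, Ucp1 (chromosome 8, 83290352 to 83298452, mm10) was the highest. It gave 32.6 TPM in replicate 1 and 47.8 in replicate 2, a mean of 40.2 ± 10.7 (SD, n = 2), from 1409 and 1992 counts. That placed it 1566th by mean level of 22028 protein-coding genes. Its deposited TPM intervals, 30.3 to 33.6 and 44.6 to 48.7, did not overlap, so replicate 2 was the higher library. Scaled to the counts in annotated genes, the ratio of replicate 2 to replicate 1 was 1.49, with an exact 95% Clopper-Pearson interval of 1.39 to 1.60. Such intervals take in the error of counting alone and say nothing of other animals, and sequencing reads are not independent molecules. A difference this large or larger was seen in 4.28% of the genes tested. The nearest coding genes, Tbc1d9 and Elmod2, stood at 1.14 to 4.44 TPM.

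Cidea (chromosome 18, 67343604 to 67367785), a lipid droplet protein abundant in brown fat, gave 32.5 and 39.9 TPM, a mean of 36.2 ± 5.24 (SD, n = 2). Its intervals, 29.7 to 33.8 and 36.7 to 41.3 TPM, also stood apart, with replicate 2 the higher. The ratio was 1.25 (1.14 to 1.36). In TPM of the first quantification the ratio of Cidea to Adipoq was 4.12-fold and 4.11-fold, while Ucp1 stood 4.14-fold and 4.92-fold above Adipoq. The near equality for Cidea did not hold on other scales. Its log2 ratio to Adipoq was 1.97 and 1.79 in the second quantification, and 1.90 and 2.02 in expected counts. B430212C06Rik, annotated as a processed transcript, overlaps the Cidea start on the opposite strand and gave 29 and 24 counts.

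Prdm16 (chromosome 4, 154316125 to 154636873, minus strand), the regulator that steers precursors toward brown fat, gave 7.53 and 8.15 TPM, a mean of 7.84 ± 0.438 (SD, n = 2). Its libraries did not differ beyond counting error, with a ratio of 1.08 (0.982 to 1.19). Its relative Mecom, also known as Prdm3, stood higher at 11.8 and 12 TPM. Elovl3 (chromosome 19, 46131897 to 46135694), a fatty acid elongase of cold-exposed brown fat, gave only 13 and 15 counts, or 0.28 and 0.33 TPM. At this depth its ratio of 1.22 had an interval of 0.540 to 2.78, so no difference was detectable. Elovl3 stood 129.8-fold below Ucp1, and in the second quantification its levels were 0.416 and 0.296 TPM, with the libraries in the opposite order.

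Of the genes shared by adipocytes, Cfd (chromosome 10, 79890853 to 79892655) was the highest. It gave 32.3 and 28.3 TPM, a mean of 30.3 ± 2.88 (SD, n = 2), so here replicate 1 was the higher library. The count ratio was 0.890 (0.798 to 0.991), although the deposited intervals, 29.5 to 34.0 and 25.5 to 29.9 TPM, overlapped. Its neighbour Elane, a neutrophil elastase gene of the same protease family, gave 0 and 1 counts, and Med16 on the other side gave 21.6 and 23.0 TPM.

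Plin1 (chromosome 7, 79720218 to 79732903, minus strand), the perilipin that guards the adipocyte droplet, gave 10.4 and 11.4 TPM, a mean of 10.9 ± 0.728 (SD, n = 2). Its counts of 517 and 625 gave a ratio of 1.27 (1.13 to 1.43), while the ratio of TPM was only 1.10. The effective length assigned to the gene also differed between the libraries, at 1777 and 2024 bases. Cidec (chromosome 6, 113424634 to 113435760, minus strand), which enlarges droplets by lipid transfer between them, gave 7.15 and 6.42 TPM, a mean of 6.79 ± 0.516 (SD, n = 2). Its ratio of 0.910 had an interval of 0.766 to 1.08.

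Adipoq (chromosome 16, 23146536 to 23158028), which encodes the hormone adiponectin, gave 7.88 and 9.71 TPM, a mean of 8.80 ± 1.29 (SD, n = 2). The count ratio was 1.15 (0.965 to 1.37). Retn (chromosome 8, 3655770 to 3660110), which encodes resistin, gave 2.18 and 1.85 TPM, a mean of 2.02 ± 0.233 (SD, n = 2), from 48 and 39 counts. Adipoq did not differ between the libraries beyond counting error. The Retn count ratio of 0.856 had an interval of 0.546 to 1.33, so no difference was detectable from so few counts. Lep (chromosome 6, 29060220 to 29073877), which encodes leptin, gave 26 and 14 counts and 0.29 and 0.31 TPM. The higher count and the higher TPM were thus in opposite libraries. Its count ratio of 0.567 had an interval of 0.274 to 1.13, so a difference was not detectable at this depth.

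**Figure D1:**
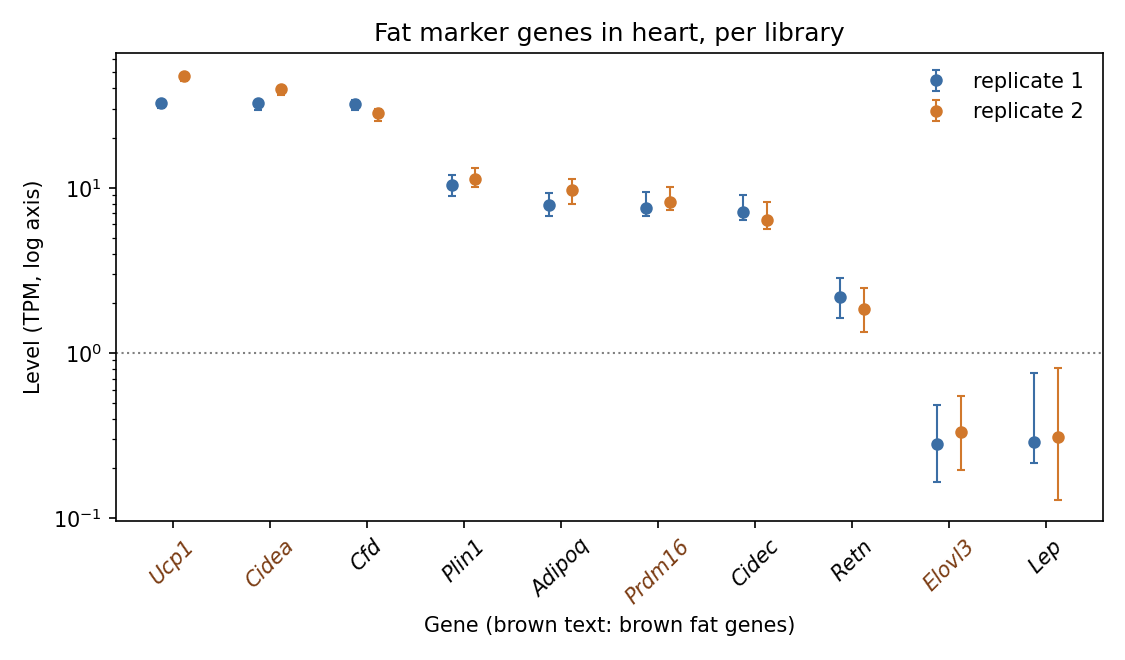
Level of the 10 fat marker genes in TPM (log axis) in each library, with bars for the deposited TPM interval of that library and a dotted line at 1 TPM. Ucp1, Cidea and Cfd lie between 28.3 and 47.8 TPM, and Elovl3 and Lep lie below the dotted line in both libraries.

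The order of the 10 levels was partly resolved. Neighbours in the order whose library values overlapped were Ucp1 and Cidea, Adipoq and Prdm16, and Elovl3 and Lep. Deposited intervals of both libraries separated Cfd from Plin1, at 2.79-fold, Cidec from Retn, at 3.37-fold, and Retn from Elovl3, at 6.61-fold. The levels therefore fell into 4 steps whose members were not separated from their neighbours by these intervals. Lep stood 29.2-fold and Retn 4.36-fold below Adipoq on the TPM scale.

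Differences between the libraries were read by a pair of rules. The first asked for TPM + 1 at least 2-fold apart after the median difference was removed, with deposited intervals that do not overlap, and the second for a 95% counting interval of the count ratio that excludes 1. Both asked for an expected count averaging 50 or more, which 7 of the 10 genes had (Retn, Elovl3 and Lep did not). None of the 7 met the 2-fold rule, beside 0.303% of all 12876 genes tested that met it as higher in replicate 1, 0.0466% as higher in replicate 2 and 0.349% either way. By the counting rule 3 of 7 (Ucp1, Cidea and Plin1) were higher in replicate 2, where 24.1% of all genes were, and 1 of 7 (Cfd) was higher in replicate 1, where 12% were. In all, 36.1% of genes met the counting rule. With 7 genes these counts do not set the list apart from all genes.

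The split of all genes depended on the scale: 3107 were higher in replicate 2 and 1547 in replicate 1 by library total, but 2038 and 2147 after TMM scaling and 1133 and 3353 by spike-in total. Scaling by spike-ins moved the median log2 ratio of all tested genes by -0.11. The same 4 fat genes met the counting rule in the same direction under the library total, TMM, DESeq2 and spike-in scales and in the second quantification. The size of the ratio did depend on the scale: for Ucp1 it was 1.38 by spike-in total, just below the interval given by library total.

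The brown fat genes summed higher in replicate 2 and the shared adipocyte genes summed slightly lower. TPM of the 4 brown fat genes summed to 72.9 in replicate 1 and 96.1 in replicate 2, and TPM of the 6 adipocyte genes summed to 60.2 and 57.9. Ucp1 made up 32.6 and 47.8 TPM of the brown fat sums, and Cfd 32.3 and 28.3 of the adipocyte sums. The contrast between the sums thus leaned on these genes. TPM was higher in replicate 2 for all 4 brown fat genes and for 3 of the 6 adipocyte genes, beside 7193 of all 12876 genes tested. These counts include Elovl3 and Lep, which lay below 1 TPM and were higher in replicate 1 in the second quantification. Of the genes with counts averaging 50 or more, the ratio of scaled counts was above 1 in 3 of 3 brown fat genes and 2 of 4 adipocyte genes. Over all genes tested it was above 1 in 63.3%, with a median of 1.04. The median ratio was 1.25 over the 3 brown fat genes tested and 1.02 over the 4 adipocyte genes tested, and no test of the difference between these was possible with 2 libraries. Airway and lung genes summed in replicate 2 to 0.0653 times their TPM in replicate 1, with Sftpc at 0 in replicate 1 and Sftpd at 0 in replicate 2. Skeletal muscle genes summed to 1.45 times, with Myh1, Myh2 and Myh4 at 0 in replicate 1, and red blood cell genes to 0.772 times. Of these lists, 3 of 10, 1 of 10 and 6 of 6 genes reached 1 TPM in both libraries. Their part in these differences was not tested.

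**Figure D2:**
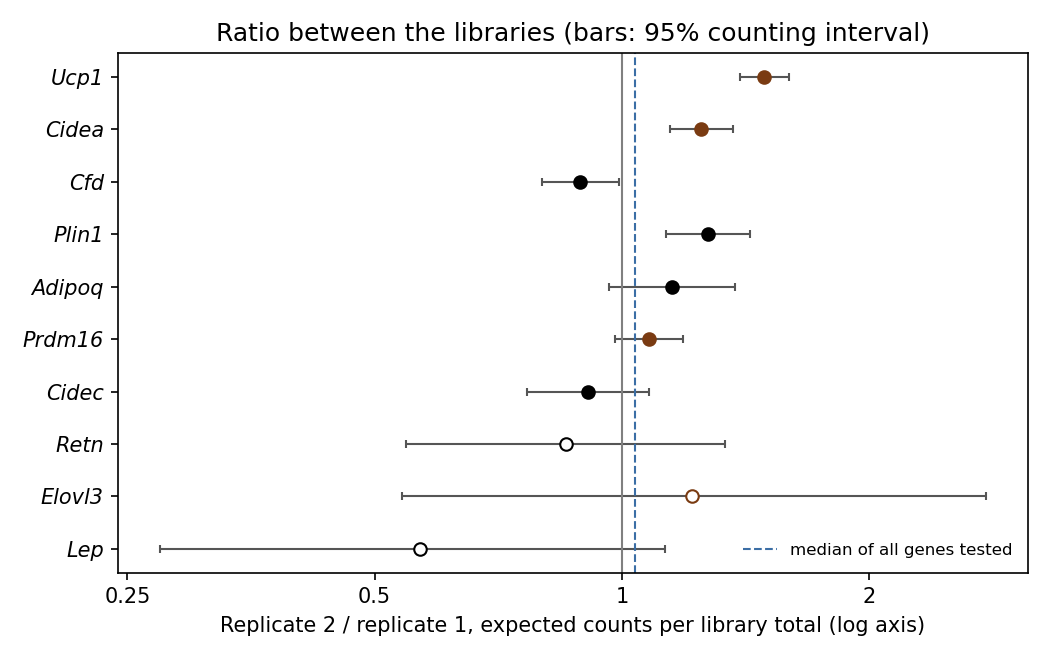
Ratio of replicate 2 to replicate 1 for each gene, from expected counts per library total (log axis), with bars for the exact 95% counting interval, brown points for brown fat genes and open points for genes under the count minimum. The intervals of Ucp1, Cidea and Plin1 lie above 1 and that of Cfd lies just below 1, while the dashed line marks the median of all genes tested at 1.04.

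Among their families, the fat genes were seldom the leading members in heart. Ucp2, a widely expressed relative of Ucp1, stood at 355.6 and 332.0 TPM, and Ucp1 was 8.71-fold below it (log2 ratio -3.12 ± 0.46, SD, n = 2). Ucp3, the form of skeletal muscle and heart, stood at 20.9 and 37.6 TPM. Like Ucp1 it was higher in replicate 2, with a count ratio of 1.83 (1.71 to 1.95). Ucp1 lay 1.41-fold above Ucp3 in TPM. The log2 ratio of their expected counts, which take no account of length, was 0.059 in replicate 1 and -0.236 in replicate 2, a mean of -0.089. Slc25a30, Slc25a27 and Slc25a14, mitochondrial carriers of the same family, stood at 0.93 to 8.84 TPM.

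Plin1 was the lowest of the 5 perilipins in both libraries. Plin5, the perilipin of oxidative tissue, stood at 69.6 and 60.3 TPM, 5.97-fold above Plin1. Plin4 stood at 61.5 and 40.9 TPM, Plin3 at 55.5 and 37.2, and Plin2, found on droplets of most cells, at 47.5 and 58.6. Plin2 and Plin1 were higher in replicate 2 by the counting rule, where 24.1% of all genes were. Plin3, Plin4 and Plin5 were higher in replicate 1, where 12% were. The CIDE family differed: Cidea led, Cidec followed at 5.31-fold less, and Cideb, the liver form, gave 0.42 and 0.56 TPM. Elovl5 at 22.7 and 23.3 TPM and Elovl1 at 10.7 and 8.75 led the elongases, and Elovl3, Elovl4, Elovl7 and Elovl2 all lay below 0.4 TPM. Retnla, a resistin-like gene, stood at 2.85 and 2.28 TPM, beside Retn at 2.18 and 1.85. Retnlg stayed at 0.50 TPM or less, and Retnlb had 0 counts in both, which allows up to 3 counts in each.

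Adiponectin belongs to the C1q and TNF related proteins, of which 10 of 11 measured genes reached 1 TPM in both libraries. Adipoq was not the highest: C1qtnf6 stood at 35.1 and 37.6 TPM and C1qtnf9, a relative known from heart, at 17.9 and 15.4. C1qtnf1 stood at 14.1 and 16.0 TPM. The 3 complement genes C1qa, C1qb and C1qc, made by macrophages, lay at 10.7 to 17.4 TPM. All 3 were higher in replicate 1 by the counting rule, where 12% of all genes were.

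**Figure D3:**
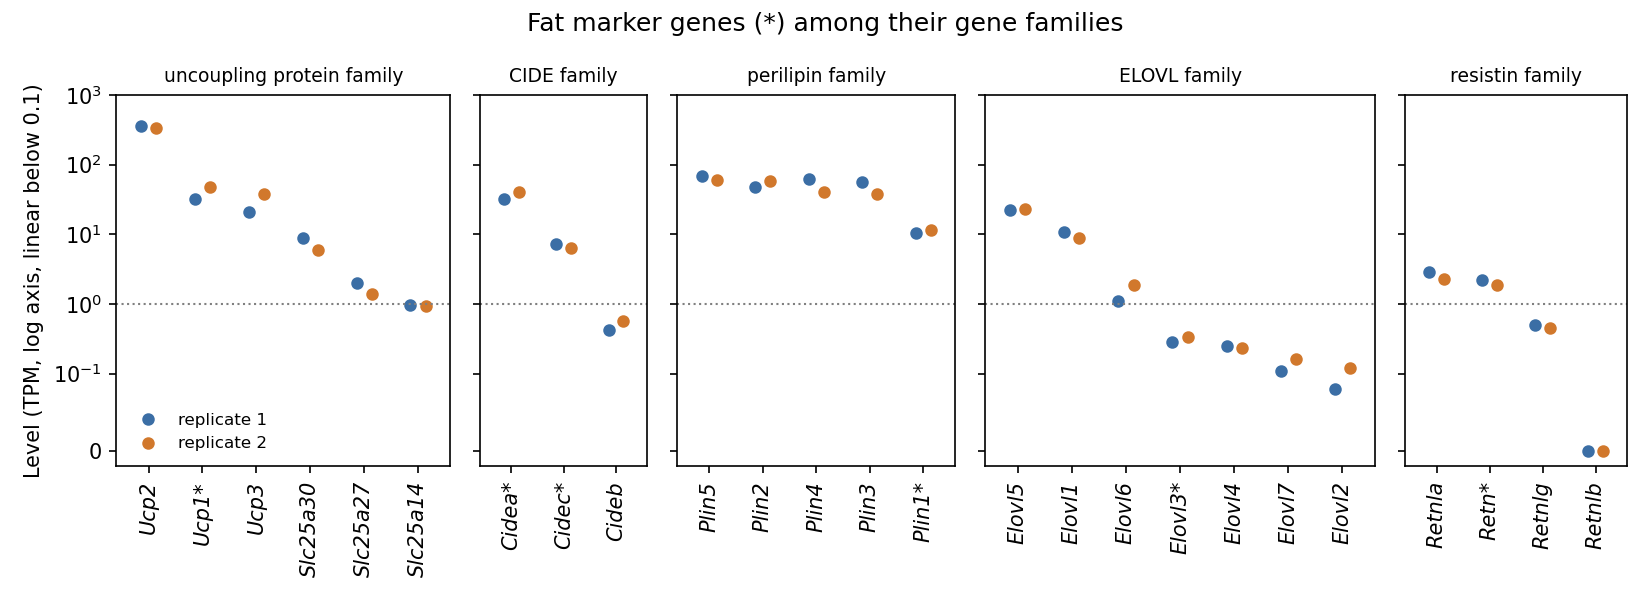
Level in TPM (log axis, linear below 0.1) of each measured gene of 5 families in the 2 libraries, with an asterisk on the fat marker genes and a dotted line at 1 TPM. Ucp2 at 355.6 and 332.0 TPM lies above Ucp1, and Plin1 lies below the other perilipins.

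Transcript shares were close between libraries and quantifications for some of the genes. Ucp1 and Cidea have 1 annotated transcript each. Of the 6 genes at 1 TPM or more with several transcripts, the leading transcript by mean share was the same in both quantifications for all 6, and it held at least 50% of the gene's level in 4. Cfd-201 held 80.3% and 81.6% of the Cfd level in replicates 1 and 2 in the first quantification, and 100% in the second. Adipoq-201, the longer of the Adipoq transcripts, held 90.3% and 78.2% in the first, but 65.6% and 49.6% in the second. Plin1-206 held 43.1% and 53.7% of 7 Plin1 transcripts, and Prdm16-202 held 18.7% and 31.4% of 13. In replicate 1 a shorter Prdm16 transcript of 757 bases held more than Prdm16-202, at 26.1%, and in replicate 2 less, at 21%. Its share in replicate 1 rested on 36.4 expected counts, against 329.2 for Prdm16-202. In the second quantification Prdm16-202 held more than it in replicate 1 too, at 17.3% against 15.6%. The spread of Plin1 shares includes Plin1-202, at 14.5% in replicate 1 and 0% in replicate 2.

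Cidec has transcripts from the upstream start and from a start about 1 kilobase downstream, the pair whose sequences are shown above. The upstream pair, Cidec-202 and Cidec-201, held 83.1% and 83.5% of the Cidec level in the first quantification, from 269.7 and 235.4 expected counts. In the second quantification it held 56.3% and 62.3%. The difference rests on Cidec-204, a short transcript given 13 and 9 counts there, but 0 and 1.44 in the first. Within the upstream pair Cidec-202 led, at 51.9% and 68.6%. The window before the upstream start had 4 CpG and the other 6.

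For Lep, the short Lep-202 held 0% in replicate 1 and 52.5% in replicate 2, and that share rested on 1.41 expected counts. The effective length of the gene was 3160 bases in replicate 1 and 1669 in replicate 2. With that shorter length, the 14 counts of replicate 2 gave a TPM close to that of the 26 counts of replicate 1. Lep lay under the 1 TPM set for transcript shares and is given because its level turns on them.

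**Figure D4:**
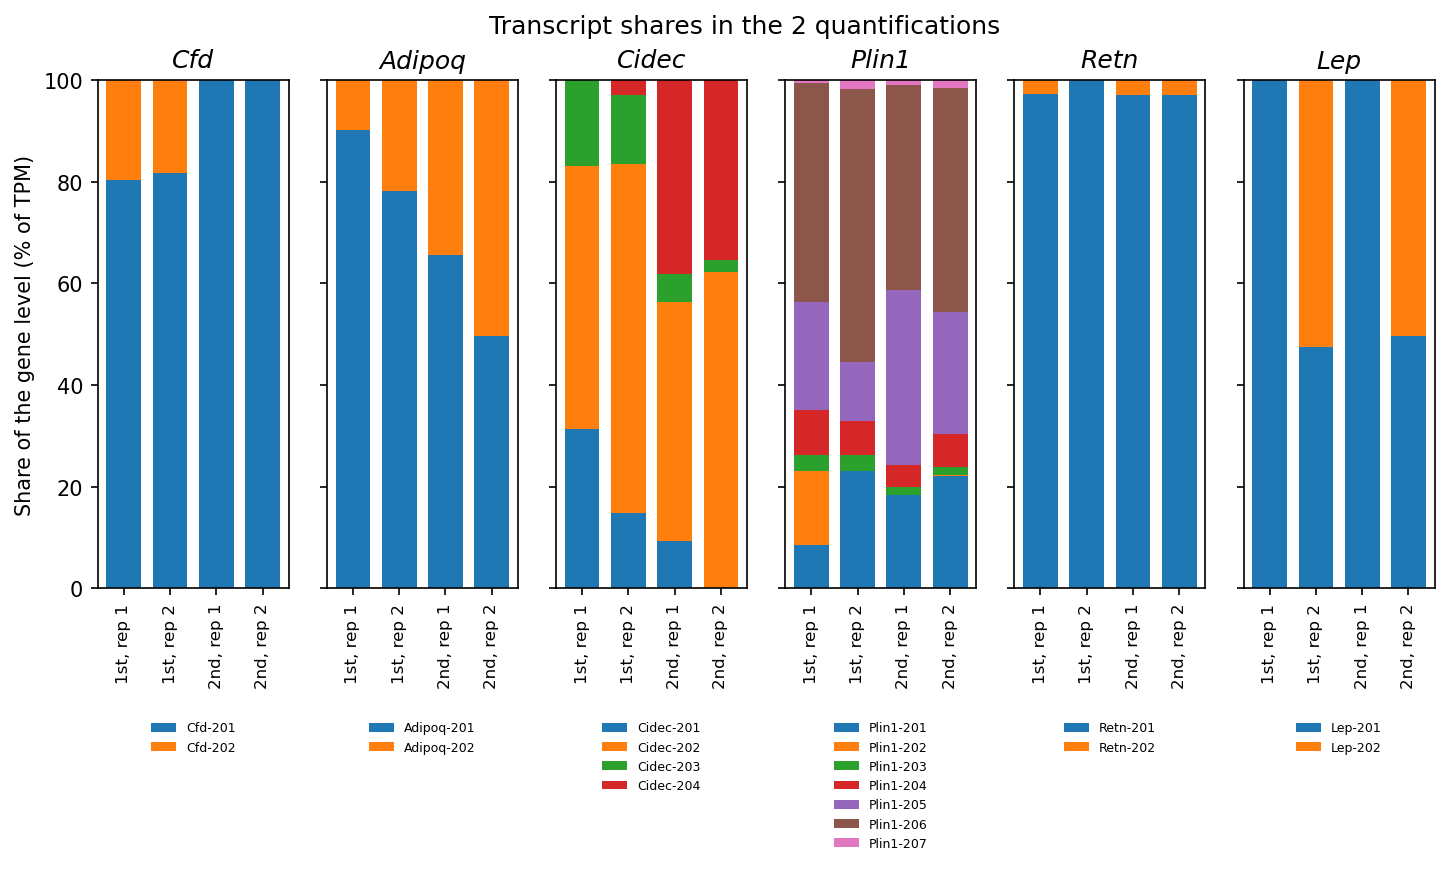
Share of each gene's TPM held by each annotated transcript (stacked bars, % of the gene level), for the first and second quantification of replicates 1 and 2. The bars of Cfd and Retn change little between libraries, while Lep-202 goes from 0% to 52.5% of the Lep level in the first quantification.

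Other genes of fat were read from lists of related genes. Of 25 genes of brown fat identity and thermogenesis, 16 reached 1 TPM in both libraries. The highest were Cox8b (875.2 and 925.8 TPM), Cox7a1 (783.8 and 781.4), Cpt1b (249.6 and 277.1) and Pdk4 (246.0 and 265.3). They encode respiratory chain subunits, the mitochondrial importer of fatty acids and a brake on glucose oxidation, and heart muscle is known to use all 4. Of the rest, Slc36a2 and P2rx5, surface proteins used as brown adipocyte markers, gave 6.38 and 6.97 and 2.90 and 2.79 TPM. Dio2, which activates thyroid hormone, gave 0.90 and 0.63 TPM, and Adrb3, the adipocyte receptor for noradrenaline, gave 20 and 14 counts. Zic1 gave 1 and 3 counts, Lhx8 gave 0 and 6, and Bmp8b and Fgf21 gave 0 in both. Ebf2, a factor of brown precursors, gave 4.20 and 4.29 TPM, and the proton channel gene Otop1 0.88 and 0.86. By the counting rule 6 of the 18 tested were higher in replicate 2 and 4 in replicate 1, beside 24.1% and 12% of all genes. The median ratio was 1.05, beside 1.04 for all genes.

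Of 10 beige fat markers, 4 reached 1 TPM in both: Slc27a1, a fatty acid transporter that muscle shares, at 63.3 and 68.7 TPM, Eva1b at 9.75 and 12.7, Klhl13 at 7.72 and 8.90, and Cited1 at 1.84 and 2.12. Tmem26 gave 0.14 and 0.18 TPM, Tbx1 0.20 and 0.33, and Hoxc9 gave 0 counts. All 3 tested were higher in replicate 2, where 24.1% of all genes were. Of 13 white fat enriched genes found, 11 reached 1 TPM in both. They were led by the matrix protein gene Dpt at 65.4 and 60.9 TPM, then Mest at 21.4 and 27.4, Ednra at 27.1 and 21 and Npr3 at 15.7 and 14.6. Dpt and Tcf21 are also fibroblast markers. Hoxc8 and Hoxc10, genes of posterior fat depots, gave 0 counts in both libraries. Of the 11 tested, 2 were higher in replicate 2 and 4 in replicate 1 (24.1% and 12% of all genes).

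**Figure D5:**
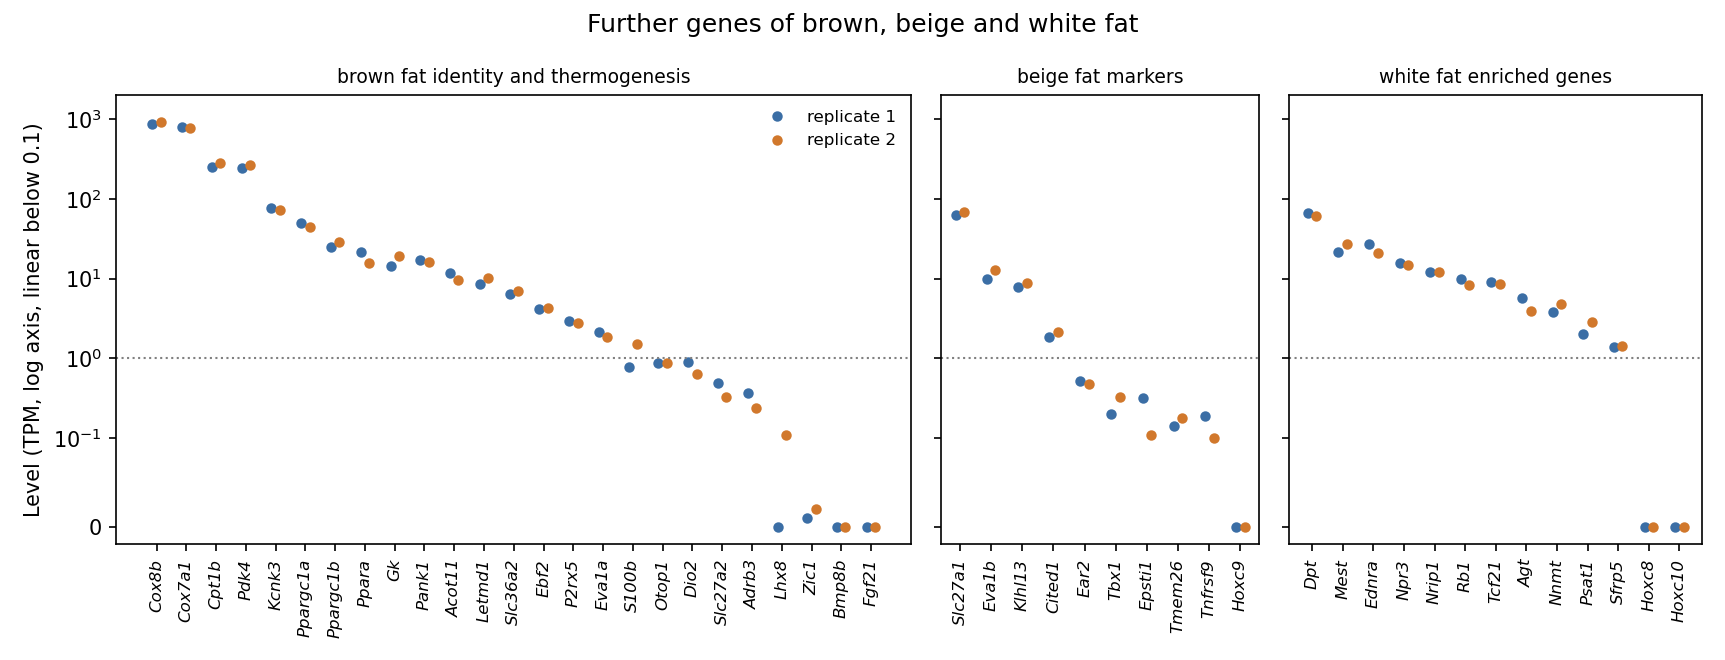
Level in TPM (log axis, linear below 0.1) of 25 brown, 10 beige and 13 white fat genes beyond the marker genes, in the 2 libraries, with a dotted line at 1 TPM. Cox8b, Cox7a1, Cpt1b and Pdk4 lie above 246 TPM, while Lhx8, Zic1, Bmp8b and Fgf21 and the 3 Hoxc genes lie at or near 0.

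All 16 adipocyte transcription factors found reached 1 TPM in both libraries. Pparg, the master regulator of adipocytes, gave 9.03 and 6.45 TPM and Cebpa 4.82 and 5.73. The highest were Ctbp1 (84.6 and 93.4 TPM), Cebpb (45.1 and 21.2), Stat5b (27.8 and 27.5) and Ehmt1 (19.9 and 19.0). Cebpb and Cebpd, early inducers of fat cell formation and also acute response genes, were the only list genes beyond the airway and lung markers to meet the 2-fold rule, both higher in replicate 1. Cebpd gave 6 and 2.08 TPM, with a count ratio of 0.353 (0.300 to 0.414). By the counting rule 6 of 16 were higher in each library, where 24.1% of all genes were higher in replicate 2 and 12% in replicate 1.

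Of the 22 genes of lipid synthesis and uptake, many of which heart muscle also uses, 9 had a higher mean level than Ucp1 and 13 a lower one. All 22 reached 1 TPM in both, from Elovl6 at a mean of 1.47 TPM upward, and were led by the fatty acid transporter Cd36 (734.1 and 613.5 TPM), the lipase Lpl (718.6 and 601.2), Fabp4 (488.3 and 411.4) and Dgat2 (125.6 and 118.5). Fabp4, a fatty acid carrier of adipocytes that endothelial cells also make, stood 51.2-fold above Adipoq (log2 ratio 5.68 ± 0.39, SD, n = 2). By the counting rule 8 of the 22 were higher in replicate 2 and 7 in replicate 1, beside the same shares of all genes, 24.1% and 12%. Of 16 droplet and lipolysis genes, 14 reached 1 TPM in both, led by Cav1, Pnpla2, Cavin1 and Mgll at 72.4 to 187.3 TPM. Of the 14 tested, 4 were higher in replicate 2 (24.1% of all genes) and 5 in replicate 1 (12%). Of 19 other adipocyte-enriched genes found, 11 reached 1 TPM in both, led by Acsl1 at 353.9 and 391.5 TPM, Car3 at 40.9 and 36.7, Lpgat1 at 35.5 and 36.4 and Mrap at 7.85 and 8.18. Of the 8 tested there, 2 were higher in replicate 2 (24.1% of all genes) and 3 in replicate 1 (12%).

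Receptors for the hormones of fat were measured beside the hormones. Of 15 receptors and partners, 14 reached 1 TPM in both. Cdh13, which binds adiponectin, gave 81.1 and 80.6 TPM, and the adiponectin receptors Adipor1 and Adipor2 gave 59.3 and 59.2 and 26.8 and 22.2. Insr gave 47.7 and 47.0 TPM and Cap1, a proposed receptor for resistin, 26.1 and 28.2. The leptin receptor Lepr gave 4.98 and 3.58 TPM, against 0.29 and 0.31 for Lep. C3 and Cfb, partners of Cfd in the alternative complement pathway, gave 27.2 and 21 and 2.65 and 2.54 TPM. Of the 14 tested, 2 were higher in replicate 2 (24.1% of all genes) and 4 in replicate 1 (12%).

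In the second quantification the mean level was higher for 9 of the 10 genes. Ucp1 stood at 33.8 and 51.2 TPM there, Cidea at 44.0 and 54.5, Cfd at 38.8 and 33.9, and Plin1 at 13.4 and 15.9. Cidea then lay above Ucp1, the reverse of the first quantification, in both libraries. Adipoq stood at 11.2 and 15.7 TPM, Cidec at 12.5 and 10.2, Prdm16 at 8.33 and 9.99 and Retn at 1.70 and 1.69. For these 8 genes the higher library was the same as in the first quantification. It was the other library for Elovl3, at 0.416 and 0.296 TPM, and for Lep, at 0.322 and 0.321 TPM.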

How the data were processed

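Heart RNA of 1 group of 2 libraries was read from the authors' tables. Per the readme files deposited with them, the assembly is mm10 and the annotation GENCODE M21; the program behind each table is not given in the sources used. Per the file headers, the first quantification (RSEM-style columns) holds the deposited expected count of each gene and transcript, not normalized, the deposited TPM, the bounds of a TPM interval (a score of precision within 1 library, at a level the headers do not state) and each transcript's share of its gene in percent. The second (kallisto-style columns) holds deposited estimated counts and TPM per transcript, here summed per gene.

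The libraries held 36404376 and 34569708 expected counts, 36197643 and 34358598 of them in annotated genes, on which count ratios were scaled. Ratios carry exact Clopper-Pearson 95% intervals. The rules for a difference (TPM + 1, mean count of at least 50) were run on simulated counts with known changes and counting error only. The simulation lacked other differences between libraries, so it cannot show how often the rules err in these data. Scaling alternatives were TMM factors (edgeR 4.0.16), size factors (DESeq2 1.42.0; both R 4.3.3, used for scaling only, not for a test) and 96 ERCC spike-ins. Other computations used Python 3.11.15 with scipy 1.17.1, numpy 2.4.6, pandas 2.3.3 and, for plots, matplotlib 3.10.9. No column of another sample was used. The treatment of CAST/EiJ reads is likewise unstated.

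The members and lists were chosen with earlier results of these data known. Named genes are the 10 members, the 4 highest genes by mean TPM of each list, the members of the uncoupling protein, CIDE, perilipin, ELOVL, resistin and PRDM16 families, list genes that met the 2-fold rule and the members of fixed gene pairs. Other names (such as Dio2, Zic1, Pparg, Lepr, Scgb1a1 and the nearest genes) were added after their values were seen. The listed symbols Wdnm1, Prdm3 (Mecom) and Gpr81 (Hcar1) were not in the annotation under those names.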

Additional observations from a re-analysis of the deposited data

How the results depend on the processing

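With 2 libraries, nothing beyond their spread can be said of other animals, and Elovl3, Lep and Retn, with 13 to 48 counts, allow no statement on differences. The median level of the 10 genes (8.32 TPM) was 12.4 TPM in the second quantification and 11.8 TPM when rescaled to genes outside the mitochondrial genome, and 7.71 to 8.93 TPM with either replicate left out, where the number of genes at 1 TPM or more stayed 8. By the 2-fold rule, 11 genes in place of 6 were higher in replicate 2 in the second quantification, which has no deposited intervals, and 18 with a pseudocount of 0.1, which also gave 71 in place of 39 higher in replicate 1 (the cause was not tested). By the counting rule, 3107 genes higher in replicate 2 became 2038 with TMM factors, 2019 with DESeq2 size factors and 1133 with spike-ins, and 1547 higher in replicate 1 became 3353 with spike-ins. The fat genes' counts of 3 and 1 were the same under these scales. Expected counts are not corrected for length. In them the mean log2 ratio became 1.77 for Prdm16 to Adipoq, 0.071 for Cidec to Adipoq and -0.089 for Ucp1 to Ucp3, each reversed. The libraries differed in sign for Cidec to Adipoq (0.241 and -0.099) and Ucp1 to Ucp3 (0.059 and -0.236), so their order by counts was not resolved. In the second quantification the mean log2 ratio of Cidea to Ucp1 became 0.23, reversed, where the cause was not tested. Of 202 other values, 147 were classed as unchanged, 51 as moved and these 4 as reversed. Only levels, log2 ratios between genes and transcript shares were compared with the spread of the libraries. Count ratios were classed as unchanged if they stayed within their counting interval, which is wide for genes with few counts. Numbers of list genes were classed by the size of their fold change. The 147 include 28 values with replicate 1 left out and 28 with replicate 2 left out. With 2 libraries, each library lies within the SD of their mean. Those values could therefore not move by more than the spread, and they say nothing of stability. Among the 147, the count ratio crossed 1 for Elovl3 (1.22 to 0.729 in the second quantification) and Lep (0.567 to 1.07 as a ratio of TPM), neither of which met a rule for a difference. The ratio of TPM in place of counts was chosen after seeing the data. No paired analysis was possible because the series has 1 group. The difference between the libraries has no value with 1 of them left out.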
